A study of Homo sapiens with 2 samples.

Results

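The MHC class I presentation genes described here are B2M, HLA-E, HLA-F, TAP1, TAP2, TAPBP, ERAP1, ERAP2 and NLRC5, measured in FaDu cells with and without GLUT4 overexpression. Every probe set whose platform annotation names 1 of these 9 genes and no other was taken, which gave 28 of the 54675 probe sets on the array, for 9 of the 19775 genes with a probe set of their own. FaDu is a head and neck squamous cancer line from the pharynx. The cells of both groups were transduced with lentivirus, selected with puromycin for 2 weeks and cultured alike. The vector group carried the control vector and the GLUT4 group carried the GLUT4 sequence, with 1 Affymetrix Human Genome U133 Plus 2.0 array each. The methods speak of stable clones without giving their number, so GLUT4 and the clones that were selected cannot be told apart.

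Because each group has 1 array, nothing could be tested against replicates, and every difference below only describes these arrays. Differences are given as log2 GLUT4 minus log2 vector intensity, so a value below 0 means a lower signal with GLUT4. Probe sets for 1 gene should differ alike, and how far they did not served as a measure of technical error. Over 10523 genes with several probe sets this came to an SD of 0.20 for the log2 difference of 1 probe set. It leaves out error that the probe sets of a gene share, such as that of the RNA, labelling, array and clone. A difference past this SD can therefore still be such error. Past 1.5-fold means beyond 0.58 in either direction on this scale, the limit that the study used. SLC2A4, which encodes GLUT4, read 28.3 with vector and 32.6 with GLUT4 on its probe set (0.20). Whether this probe set detects the introduced sequence is not known here, so it does not check the labels.

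MHC class I molecules show peptides from inside the cell to CD8 T cells at the surface. Each consists of a heavy chain, such as HLA-E or HLA-F, and the invariant light chain B2M. Peptides made by the proteasome are pumped into the endoplasmic reticulum by the transporter TAP1-TAP2, trimmed there by the aminopeptidases ERAP1 and ERAP2, and loaded with the help of tapasin (TAPBP). NLRC5 is the transactivator that drives many of these genes, and interferons raise most of them through IRF and STAT factors. Squamous carcinomas are known for reduced class I presentation in a share of tumors.

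Because the interferon response of these genes runs through their promoters, the stretches that hold an interferon-stimulated response element (ISRE) core are shown first. The core searched was GAAANNGAA on either strand, in windows from 250 bases before to 50 bases after each annotated start (RefSeq, GRCh38.p14). The promoter table held windows of 7 of the 9 genes, 10 windows in all, and each of these 7 genes had a core in a window. Capitals mark the core, or overlapping cores, and each stretch is read along the gene's own strand.
B2M, chr15:44711338-44711422, plus strand: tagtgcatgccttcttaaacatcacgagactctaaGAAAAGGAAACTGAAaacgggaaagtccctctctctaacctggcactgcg
HLA-F, chr6:29723244-29723322, plus strand: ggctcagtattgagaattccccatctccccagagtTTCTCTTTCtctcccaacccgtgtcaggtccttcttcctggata
TAP1, chr6:32853788-32853872, minus strand: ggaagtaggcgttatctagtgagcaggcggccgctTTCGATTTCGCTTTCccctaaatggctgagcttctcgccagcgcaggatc
TAP2, chr6:32838754-32838832, minus strand: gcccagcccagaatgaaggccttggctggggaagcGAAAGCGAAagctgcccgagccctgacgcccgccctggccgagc
TAPBP, chr6:33314054-33314133, minus strand: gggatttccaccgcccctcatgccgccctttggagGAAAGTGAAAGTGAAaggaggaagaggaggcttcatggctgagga
ERAP1, chr5:96807921-96807977, minus strand: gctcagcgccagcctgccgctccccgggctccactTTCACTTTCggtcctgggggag
ERAP2, chr5:96876435-96876513, plus strand: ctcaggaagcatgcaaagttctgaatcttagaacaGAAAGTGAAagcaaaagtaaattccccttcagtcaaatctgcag

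Of all 35116 windows in the table, 8.11% held the ISRE core, as did 9.86% of the 27305 genes when any window of a gene was counted. B2M, TAP1 and TAPBP had a pair of overlapping cores, and the other 4 genes had 1 each. Most cores lay before the start, from -155 in HLA-F to -14 in TAPBP, and that of ERAP1 began 4 bases into the transcript. HLA-E and NLRC5 had no window in the table. The second windows of TAP1 and ERAP1 and the first of ERAP2 held no core.

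Further motifs of class I promoters were less common in these windows. The CCAAT box (letters CCAAT), the Y element to which NF-Y binds, was found in 4 of the 7 genes, against 39.7% of all genes. The motif TGACG, a part of the CRE within the X2 element, was found in B2M and TAP2, against 28.4% of all genes. Of the 7, B2M alone held both, with TGACG at -75 and the inverted CCAAT box at -49. The GAS core TTCNNNGAA, which STAT dimers bind, was found in TAP1, in its second window, against 9.38% of all genes. A match is a stretch of letters and was not tested for binding.

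**Figure D1:**
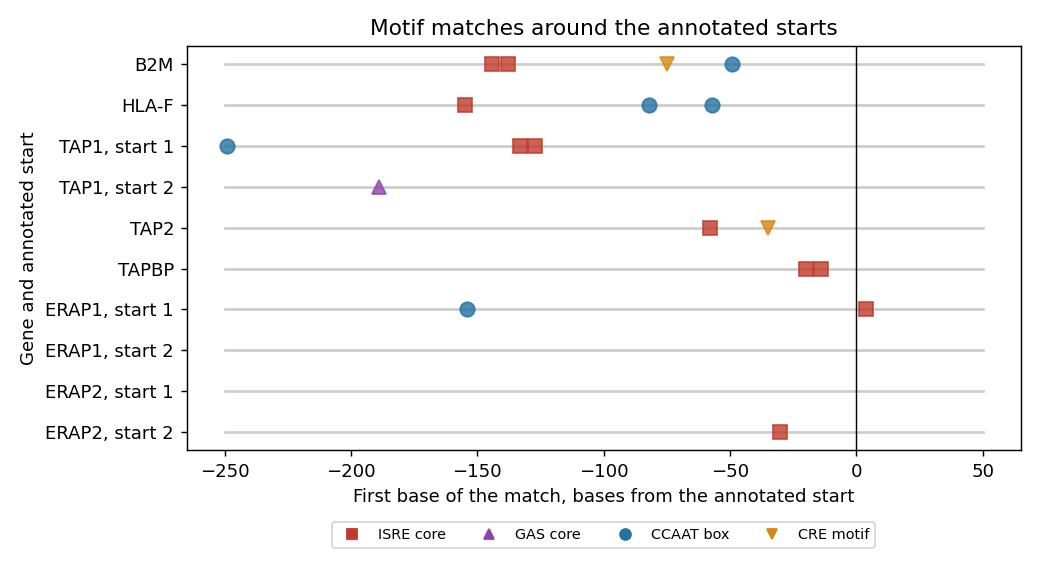
Motif matches in the 10 promoter windows of 7 genes, with the first base of each match in bases from the annotated start on the horizontal axis and 1 row per annotated start; squares are ISRE cores, triangles pointing up GAS cores, circles CCAAT boxes and triangles pointing down the CRE motif TGACG. Every gene has a square on at least 1 row, and the square of ERAP1 lies just after the start.

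As a group these genes, chosen with earlier results of these data known, read lower with GLUT4 on their brightest probe sets. The shares of all genes given beside them are therefore a description and not independent support. Of the 9 genes, 8 had a difference below 0, against 52.2% of all genes, and the median was -0.32, against -0.015 for all genes. In 7 of the 9 the difference was larger than the SD of 1 probe set, as it was in 32.7% of all genes, and in all 7 the GLUT4 array was the lower. Only ERAP1 was more than 1.5-fold lower and none was more than 1.5-fold higher, against 1.54% and 1.84% of all genes. From the lowest, the order of the differences was ERAP1, ERAP2, TAPBP, NLRC5, TAP1, HLA-F, TAP2, B2M and HLA-E. Neighbours in this order lay closer together than 0.29, the SD of the difference between a pair of probe sets of 1 gene, so their order is not resolved.

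The further probe sets of the same genes showed less. Of these 19, 12 lay below 0, with a median of -0.07. Over all 28 probe sets, 20 lay below 0, against 51.5% of all probe sets, the median was -0.10, and 2 were more than 1.5-fold lower, both of ERAP1, against 1.22% of all probe sets. Of the 28, 12 passed the SD of 1 probe set, against 32.8% of all probe sets. None of the 28 was more than 1.5-fold higher, against 2.04%. Of the 18 probe sets above the median signal of the array, 14 lay below 0 (median -0.10), and of the 10 dimmer ones 6 did. With the probe sets of each gene averaged, the median of the 9 genes was -0.18 and no gene was past 1.5-fold.

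**Figure D2:**
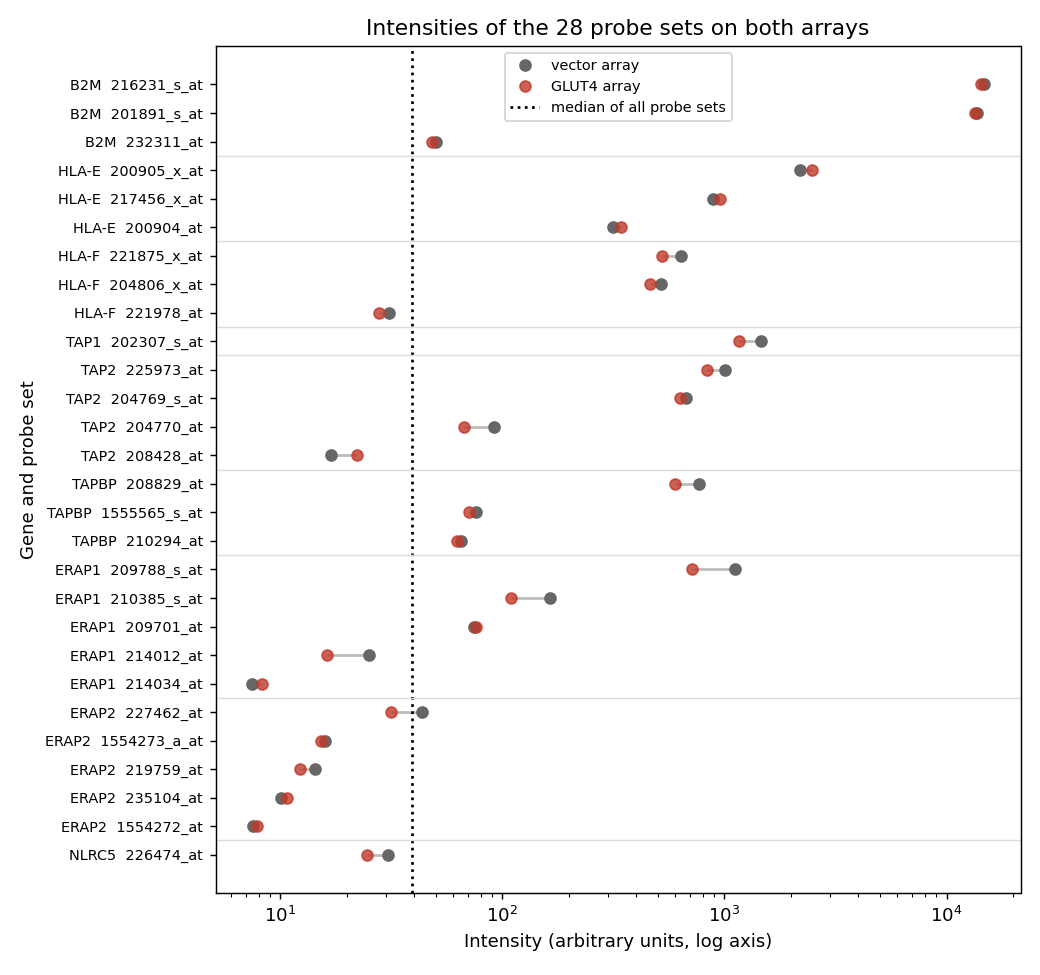
Intensity of each of the 28 probe sets (horizontal log axis, arbitrary units) on the vector array (grey) and the GLUT4 array (red), with 1 row per probe set; the dotted line is the median signal of all probe sets. The red point lies left of the grey one on 20 rows, and the widest gaps among bright rows are those of ERAP1.

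The signal of the light chain hardly differed between the arrays. B2M read 14729 with vector and 14333 with GLUT4 on its brightest probe set (-0.04), 13721 and 13372 on the second (-0.04), and 50.4 and 48.1 on the dimmest (-0.07). All 3 differences lay below 0 and each was well within the SD of 1 probe set. The 3 B2M probe sets also agreed most closely, with an SD of 0.02 between them. The highest intensity on the arrays was 25995, and whether signals as bright as those of B2M follow the mRNA level was not tested.

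The nonclassical heavy chains HLA-E and HLA-F went in opposite directions. HLA-E, whose product presents leader peptides of other class I chains to the NK receptor CD94-NKG2A, was higher with GLUT4 on all 3 probe sets. Its brightest read 2183 with vector and 2475 with GLUT4 (0.18), the next 885 and 954 (0.11) and the dimmest 316 and 341 (0.11). HLA-E was the 1 gene of the 9 above 0 on its brightest probe set, and none of its 3 differences passed the SD of 1 probe set. It stayed above 0 under each other scaling of the arrays, between 0.14 and 0.20.

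HLA-F, a class I chain that can reach the surface without peptide and binds NK receptors, was lower on all 3. Its brightest probe set read 638 and 523 (-0.29), the second 519 and 460 (-0.17) and the dimmest 31.0 and 27.9 (-0.15). The difference of the brightest was past the SD of 1 probe set and those of the others were not. Of the 3 probe sets of each gene, 2 carry the suffix x_at, which marks probes that may also match other transcripts, and class I chains are close in sequence. The probe sets without it differed by 0.11 for HLA-E and by -0.15 for HLA-F, in the same directions.

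The peptide transporter read lower on its brightest probe sets. TAP1 has 1 probe set, which read 1454 with vector and 1169 with GLUT4, 1.24-fold lower (-0.32). TAP2 read 1009 and 833 on its brightest, 1.21-fold lower (-0.28). The other TAP2 probe sets were spread widely, with 672 and 629 on the second (-0.10), 91.9 and 67.5 on the third (-0.45) and 16.9 and 22.1 on the dimmest (0.38). The dimmest, below the median signal, is the one that lay above 0, and with the offset of 32 that damps dim signals its difference was 0.14.

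TAPBP encodes tapasin, which bridges the transporter and the empty class I molecule. Its brightest probe set read 770 and 601, 1.28-fold lower (-0.36), while the others read 76.3 and 71.1 (-0.10) and 65.4 and 62.3 (-0.07). All 3 were below 0, and only the brightest was past the SD of 1 probe set. TAPBPL, a tapasin relative that edits class I peptides outside the loading complex, read 108 and 97.5 (-0.15), again lower but within that SD. ABCB9, a TAP relative that pumps peptides into lysosomes, read 51.3 and 45.8 (-0.16).

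The trimming enzymes ERAP1 and ERAP2 both read lower on their brightest probe sets, and their further probe sets were split. The brightest ERAP1 probe set read 1113 with vector and 715 with GLUT4, 1.56-fold lower (-0.64). Of all probe sets on the array, 0.922% had a lower difference. The second read 164 and 110, 1.49-fold lower (-0.58), just inside 1.5-fold, and a dim one read 25.1 and 16.3, 1.54-fold lower (-0.62). These 3 lay between -0.64 and -0.58, while the remaining ERAP1 probe sets read 74.3 and 76.0 (0.03) and 7.47 and 8.30 (0.15). So 3 of 5 probe sets were lower by nearly the same factor and the other two were not, a range of 0.79 within the gene, and the mean of all 5 was -0.33. Without probe sets whose suffix is s_at or x_at, the brightest of ERAP1 was the one at 0.03.

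ERAP2, the partner that prefers other peptide ends, was near background. Its brightest probe set read 43.3 and 31.4, 1.38-fold lower (-0.46), with a mean just under the median signal of 39.3, and with the offset of 32 the difference was -0.25. The other 4 read 15.8 or below on both arrays, with differences from -0.22 to 0.09. NLRC5 was also dim, at 30.6 with vector and 24.5 with GLUT4 on its 1 probe set, 1.25-fold lower (-0.32; -0.15 with the offset). At this signal a lower NLRC5 mRNA level and a difference in background cannot be told apart.

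**Figure D3:**
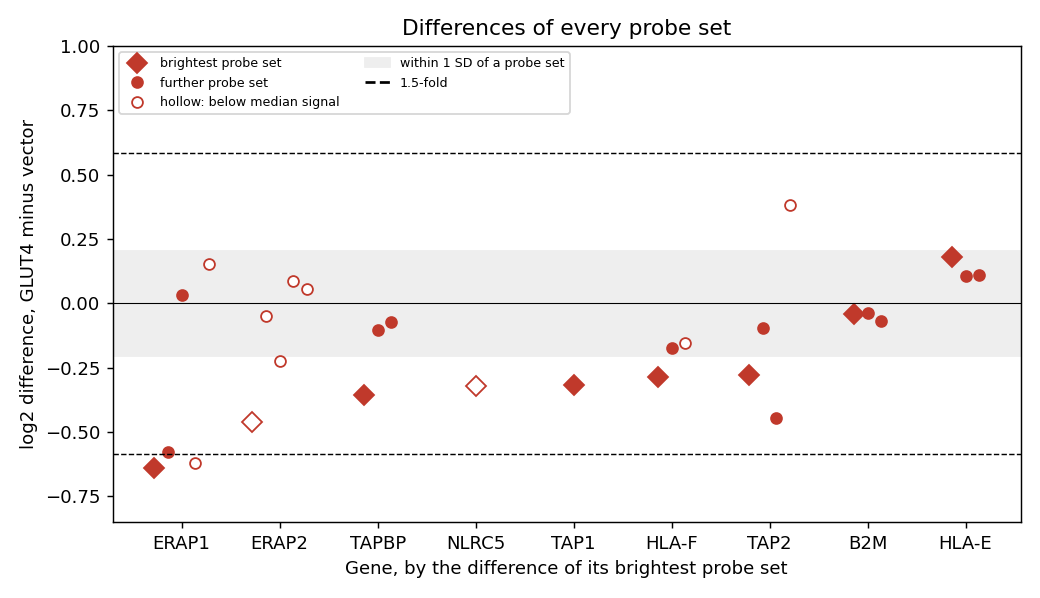
log2 difference (GLUT4 minus vector, vertical axis) of every probe set, by gene; diamonds are the brightest probe set of a gene, circles the further ones, hollow symbols lie below the median signal, the grey band is within 1 SD of a probe set (0.20) and dashed lines mark 1.5-fold. Of the 9 diamonds 7 lie below the band, and 2 symbols of ERAP1 lie below the lower dashed line.

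Against the whole array these differences were modest. The 18225 brightest probe sets had differences from -0.53 to 0.61 in their middle 95%, and 1.85% of them were more than 1.5-fold lower. ERAP1's brightest probe set lay outside this range, while those of TAPBP, TAP1, HLA-F and TAP2 lay inside it. So 8 of the 9 genes had the same direction on their brightest probe sets, at sizes that were mostly within the bulk of the array.

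**Figure D4:**
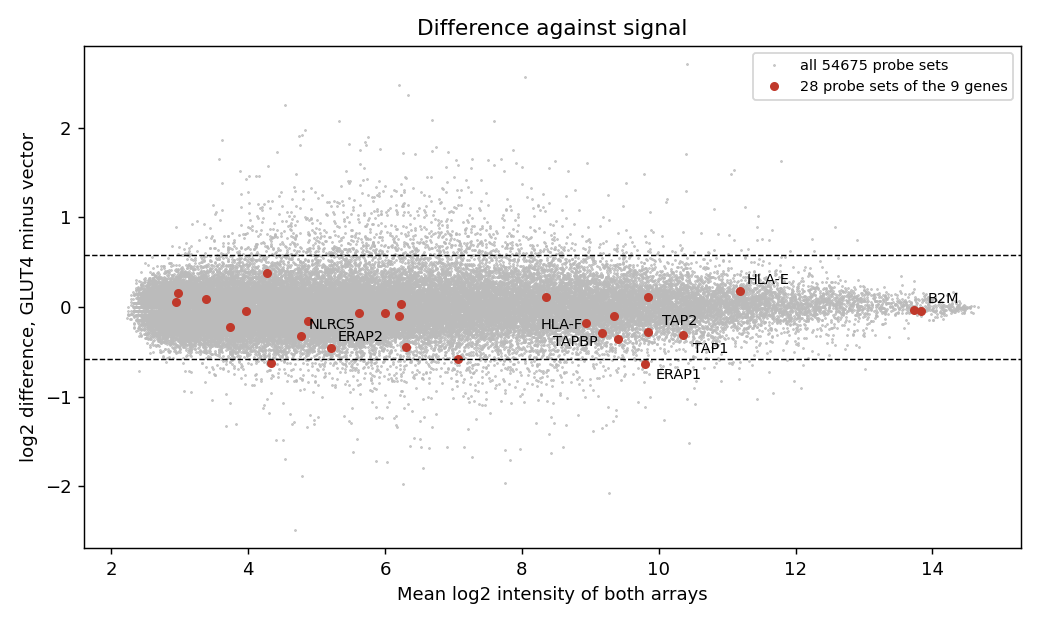
log2 difference (GLUT4 minus vector, vertical axis) by log2 signal averaged over both arrays (horizontal axis), for all probe sets (grey) and the 28 of the 9 genes (red), with the brightest of each gene named and dashed lines at 1.5-fold. Most named points lie below 0 and inside the grey cloud, with ERAP1 just below the lower dashed line.

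The rest of the class I pathway was read, with genes from outside it, from 11 lists. They held 83 genes beside the 9, of which 75 were measured, and were also chosen with earlier results known. Class II genes and NKG2D and inhibitory ligands, which are not part of that pathway, are among them. Of these 75, PSMB9 and MICB were more than 1.5-fold lower and none was more than 1.5-fold higher, against 1.54% and 1.84% of all genes, and the median was -0.10. The counts below 0 in these lists stand against 52.2% of all genes. The peptide supply differed by step. Of 5 immunoproteasome genes measured, 4 lay below 0, with a median of -0.26. PSMB9, an interferon-induced catalytic subunit, read 1203 and 719, 1.67-fold lower (-0.74), and PSMB8, another, read 1658 and 1383 (-0.26). The constitutive subunits that they replace had a median of -0.04, with PSMB5 at -0.075 and PSMB6 at -0.04. All 6 cytosolic peptidases, which trim or destroy peptides before transport, lay above 0 with a median of 0.16, NRDC at 0.22 and BLMH at 0.19 among them, and none was past 1.5-fold. With quantile normalization 5 of the 6 lay above 0, and without x_at and s_at probe sets the median was 0.30 over 4 genes.

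TAP1 and PSMB9 lie back to back on chromosome 6, with 488 bases between their annotated starts on opposite strands. Both read lower with GLUT4, TAP1 at -0.32 and PSMB9 at -0.74. The ISRE core shown for TAP1 lies between these starts, and whether it bears on either difference was not tested. The PSMB9 window of the table held no core, while those of PSMB8, PSMB10, PSME1 and POMP did, so that 4 of 5 immunoproteasome genes did. Only the letters GAAANNGAA were searched, so a gene without a match may still hold an ISRE of other letters. Of the other lists, class II genes had a core in 4 of 10 genes with a window. Further heavy chains had a core in 2 of 9, with none in HLA-B, HLA-C or HLA-G. Cytosolic peptidases and SXY-box factors each had 1 in 6 genes, surface turnover 1 in 6 and NKG2D and inhibitory ligands 1 in 7. None was found in the 6 chaperones, the 8 interferon receptor and signalling genes, the 3 close relatives of the 9 genes or the 1 constitutive proteasome subunit with a window. Over the whole array, 1370 genes with a core had a median difference of -0.02 and 2.34% of them were more than 1.5-fold lower, against -0.01 and 1.41% of 14014 genes without.

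Of 9 further class I and class I-like heavy chains measured, 6 lay below 0 (8 with quantile normalization), with a median of -0.17. Without x_at and s_at probe sets 5 of these genes were left, with a median of -0.36. MICB, a stress-induced ligand of the activating NK receptor NKG2D, read 1708 and 1105, 1.55-fold lower (-0.63). The classical chains HLA-B and HLA-C, given here after their values were seen, read 1408 and 1204 (-0.23) and 1670 and 1511 (-0.14). Of 8 NKG2D and inhibitory ligands, a list that shares MICA and MICB with the heavy chains, 7 lay below 0 with a median of -0.19. Of 8 chaperones of class I folding and loading, 6 lay below 0 with a median of -0.14, the lowest being the calcium-binding chaperone CALR at -0.33 and the stress-induced HSPA5 at -0.31.

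Regulators of the class I genes did not share their direction. The SXY-box factors, which assemble with NLRC5 on class I promoters, had a median of 0.10, with 5 of 7 above 0, RFXANK at 0.31 and CREB1 at -0.45. Interferon receptors and signalling genes split evenly, 5 below and 5 above 0, with a median of -0.02 and none past 1.5-fold. The median was 0.01 with equal array medians and -0.11 over 9 genes without x_at and s_at probe sets. The receptor chain IFNAR1 was at -0.25 and the repressor IRF2 at -0.23. IRF1, which binds ISRE sites in class I promoters, read 496 and 452 on its brighter probe set (-0.14) and 409 and 238 on the other, 1.72-fold lower (-0.78).

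Class II genes, which present peptides to CD4 T cells and are mostly silent in epithelial lines, were above the median signal in 7 of 13 cases. That median is 39.3 and no detection calls were used, so a signal above it does not by itself show expression. Of the 13, 10 lay below 0 with a median of -0.11, and none was past 1.5-fold. The median of the 7 above the median signal was -0.22. The lowest were CTSS, a lysosomal protease, at -0.53 (211 to 146) and HLA-DMB, part of the peptide editor, at -0.46 (65.4 to 47.5). All 6 genes of class I surface turnover lay below 0 (5 of 6 with equal array medians) with a median of -0.08, MARCHF9, a ubiquitin ligase that removes class I molecules, at -0.48 and SUSD6 at -0.30 among them. Without x_at and s_at probe sets their median was -0.24.

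**Figure D5:**
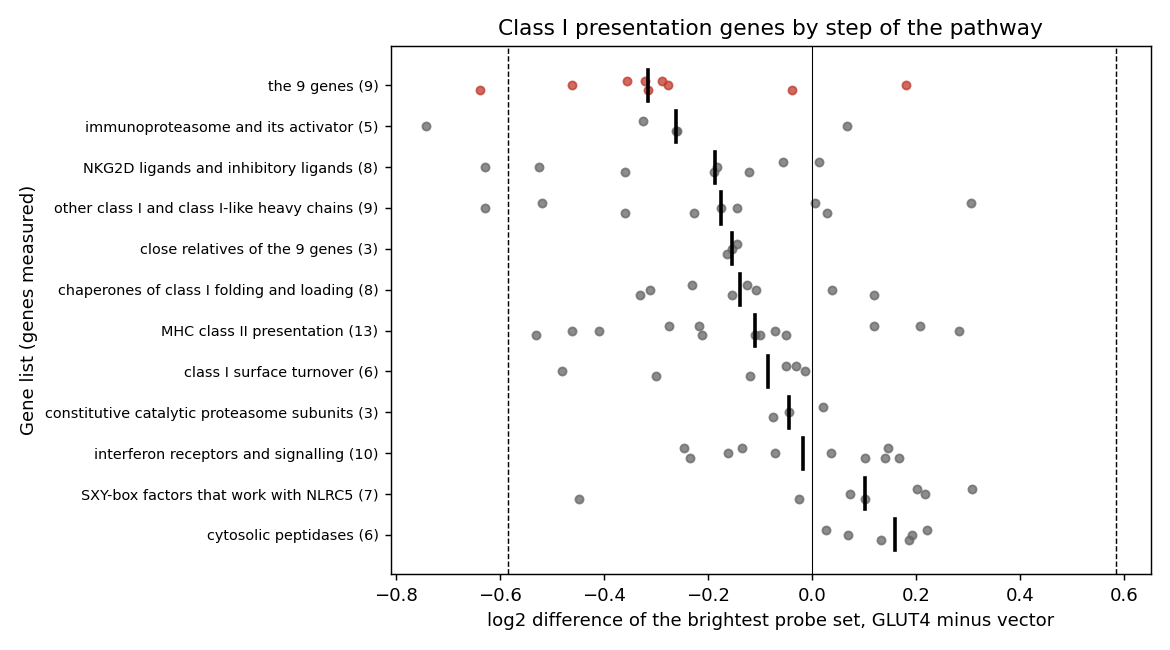
log2 difference of the brightest probe set (GLUT4 minus vector, horizontal axis) of each gene in the 9 genes (red) and the 11 further lists (grey). Black bars are the medians and dashed lines mark 1.5-fold. The medians run from -0.32 for the 9 genes to 0.16 for the cytosolic peptidases.

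The squamous label was borne out by bright keratinocyte genes, such as KRT5, a basal keratin, at 11024 and 13093. Of 7 squamous epithelial markers measured all were above the median signal, and they summed to 45801 with vector and 46060 with GLUT4. KRT14, another basal keratin, was past 1.5-fold higher (1.02) and the adhesion molecule EPCAM past 1.5-fold lower (-0.83). Leukocyte markers, whose cells carry much class I, summed to 520 and 389 over 10 genes, 7 of them below 0 and 3 above the median signal. CD14 was the brightest at 251 and 143, and the defining PTPRC read 8.30 and 8.14, far below the median. Without CD14 the other 9 summed to 268 and 246. Fibroblast markers summed to 918 and 1537 over 8 genes, 6 of them above 0, with DCN at 482 and 1050 and LUM at 38.5 and 79.9. These 2 carried the difference, and the other 6 summed to 398 and 407, with differences from -0.22 to 0.20. Endothelial markers summed to 296 and 209 over 6 genes, 3 of them below 0, with PECAM1 at 141 and 48.2. Without PECAM1 the other 5 summed to 155 and 161. Both samples were cultures of the FaDu line, so these markers are read as transcripts of that line, not as other cell types. The part of these markers in the differences of the class I genes was not tested. In bulk RNA a change in some of the cells and a change in all of them cannot be told apart.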

How the data were processed

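Total RNA of both cell populations was labelled with the 3′ IVT kit. GeneSpring log2 normalization is what the methods describe, while MAS5 (no version) stands in the submitters' processing notes. The sources used here do not say how both fit together. The authors deposited linear intensities that had been normalized, with medians of 39.7 (vector) and 39.1 (GLUT4) and sorted log2 values at most 0.15 apart. No detection calls were used.

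Intensities were turned to log2 and subtracted. A gene was represented by its brightest probe set, by the mean of both arrays. Of 54675 probe sets, 41097 name 1 gene, 1801 several and 11777 none here, and older symbols were matched through RefSeq (GRCh38.p14). The members and lists were chosen with earlier results of these data known. Named were the 9 genes, and of each list the genes past 1.5-fold or, where none was, the 2 with the largest difference above the median signal, with PSMB8, PSMB9, IRF1, SLC2A4 and the brightest marker of each cell type. HLA-B, HLA-C, KRT14, EPCAM, LUM, PTPRC, TPP2 and the genes named for their promoters alone were chosen after their values were seen. Listed genes without a probe set naming only them were not analysed here. Alternatives were equal medians, quantile normalization, loess (fraction 0.3), 32 added to each intensity, dropping signals below the median, averaged probe sets, and no x_at or s_at probe sets. Marker sums without the genes past 1.5-fold were added after seeing the data. Precision is limited by having 1 array per group. The calculation was run on simulated data with planted differences larger than those of the 9 genes and noise independent between probe sets. This does not cover smaller differences or error that probe sets share. Python 3.11.15, numpy 2.4.6, pandas 2.3.3, statsmodels 0.14.6 and matplotlib 3.10.9 were used.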

Additional observations from a re-analysis of the deposited data

How the results depend on the processing

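The median of the 9 genes lay between -0.30 and -0.27 under the other scalings, the offset and the filter on signal. It was -0.18 with all probe sets of a gene averaged and -0.21 without x_at and s_at probe sets, and in both cases none of the genes was more than 1.5-fold lower, in place of 1. Without x_at and s_at probe sets the difference of ERAP1 was 0.0319 in place of -0.64, since another of its probe sets then stood for it, TAP1 had no probe set left, and 11 of 17 member probe sets lay below 0 in place of 20 of 28. The member probe sets more than 1.5-fold lower were 3 in place of 2 with quantile normalization, and 1 with the loess fit, with the offset, with the filter and without x_at and s_at probe sets. Among the genes of the 11 lists, TPP2 was more than 1.5-fold higher without x_at and s_at probe sets (56.2 to 88.4), which made 1 in place of 0. The offset of 32 brought the median of these listed genes to -0.0483 from -0.10. The ISRE core with a further A at its end was found in 3.57% of all windows and still in 7 of the 7 genes. The core itself was found in 6 of the 7 when only the bases before the start were searched. Among differences of the 9 genes and medians of the lists, ERAP1 and the interferon list (0.01 with equal array medians, from -0.02) changed sign. Without x_at and s_at probe sets some list medians lay farther from 0, such as -0.36 for heavy chains, -0.24 for surface turnover, -0.11 for the interferon list and 0.30 for cytosolic peptidases. Others lay nearer 0, at 0.02 for SXY-box factors, -0.05 for class II genes and -0.075 for the close relatives of the 9 genes. No paired analysis was possible because each group had 1 array. With 1 array per group no replicate could be left out, and genes below the median signal, here ERAP2 and NLRC5, are limited by background.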
